A study of Mus musculus with 16 samples.

Results

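Integrins are cell-surface receptors built from 1 alpha and 1 beta chain, and laminins are basement membrane proteins built from an alpha, a beta and a gamma chain. The genes of both families were followed here in the left ventricles of mice with a mutation in RBM20, a splicing factor of heart muscle. The members were all genes of the deposited count table whose symbol names an integrin alpha chain, an integrin beta chain or a laminin chain. There were 37 of them among 56953 genes: 18 integrin alpha, 8 integrin beta and 11 laminin genes. After a filter on low counts 36 of the 37 were tested among 18662 genes. Lama1, the embryonic laminin alpha chain, was not tested because no library reached 0.15 CPM for it (CPM is a count scaled to the size of its library).

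All 16 mice were Bl6J animals of both sexes, and each was given an AAV9 vector, an adeno-associated virus that reaches heart muscle, by tail vein injection when 4 weeks old (1e12 viral genomes). Hearts were taken 12 weeks later, at 16 weeks. The mice were either wild type (WT) or homozygous for the RBM20 mutation P635L, and the vector carried either the Tnpo3 cDNA, which encodes an importer of splicing factors into the nucleus, or as a control (Ctr) the construct pCAG-iCre-T2A-eGFP with Cre recombinase and green fluorescent protein. Each genotype was combined with each vector in 4 mice: P635L Ctr, P635L Tnpo3, WT Ctr and WT Tnpo3. No group went without virus, and neither sex, litter nor batch is labelled mouse by mouse. As the vectors are described, the control hearts differed from the Tnpo3 hearts in having Cre and the fluorescent protein as well as in lacking the Tnpo3 cDNA.

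In heart muscle, cardiomyocytes hold on to the laminin of their basement membrane mainly through the integrin alpha-7 beta-1 and through dystroglycan. Laminins with the alpha-2 chain surround muscle fibres, whereas those with alpha-4 and alpha-5 are typical of vessel walls. Fibroblasts use other integrins for collagen, and leukocytes carry a set of their own that pairs with the beta-2 and beta-7 chains.

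Library totals lay between 28493249 counts (WT Ctr replicate 1) and 85922669 counts (P635L Ctr replicate 2). Tnpo3 itself stood at 41.6 to 49.4 CPM in the 8 Ctr libraries and at 231 to 723 CPM in the 8 Tnpo3 libraries, as labelled. The gene ENSMUSG00000119584 took 19.96% to 22.65% of the counts in 3 libraries (WT Ctr replicates 2 and 4 and WT Tnpo3 replicate 4). In 3 libraries, all of them WT (WT Ctr replicate 4 and WT Tnpo3 replicates 2 and 4), Xist exceeded the Y-linked genes, so that mice of that kind were found only in the WT groups. Summed CPM of 7 cardiomyocyte markers was 75761 to 92889 in WT Ctr, 53392 to 57511 in P635L Ctr and 58445 to 68344 in P635L Tnpo3.

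Levels per length showed which chains made up the bulk of both families. In RPKM (CPM per kilobase of gene length), Lamb2 (chromosome 9: 108356935-108367729, GRCm39), the beta-2 chain of muscle and vessel basement membranes, was the most abundant member with a mean of 76.5 over the 16 libraries. Itgb1, the shared beta chain of most matrix-binding integrins, followed at 58.6, then Itgb5, a vitronectin receptor chain, at 53.9. Itga7, the laminin-binding alpha chain of striated muscle, reached 26.3, Lamc1, the common gamma chain, 20.2, and Itga5, the fibronectin-binding alpha chain, 15.1. At the other end 16 of the 37 members had a mean under 1 RPKM.

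**Figure D1:**
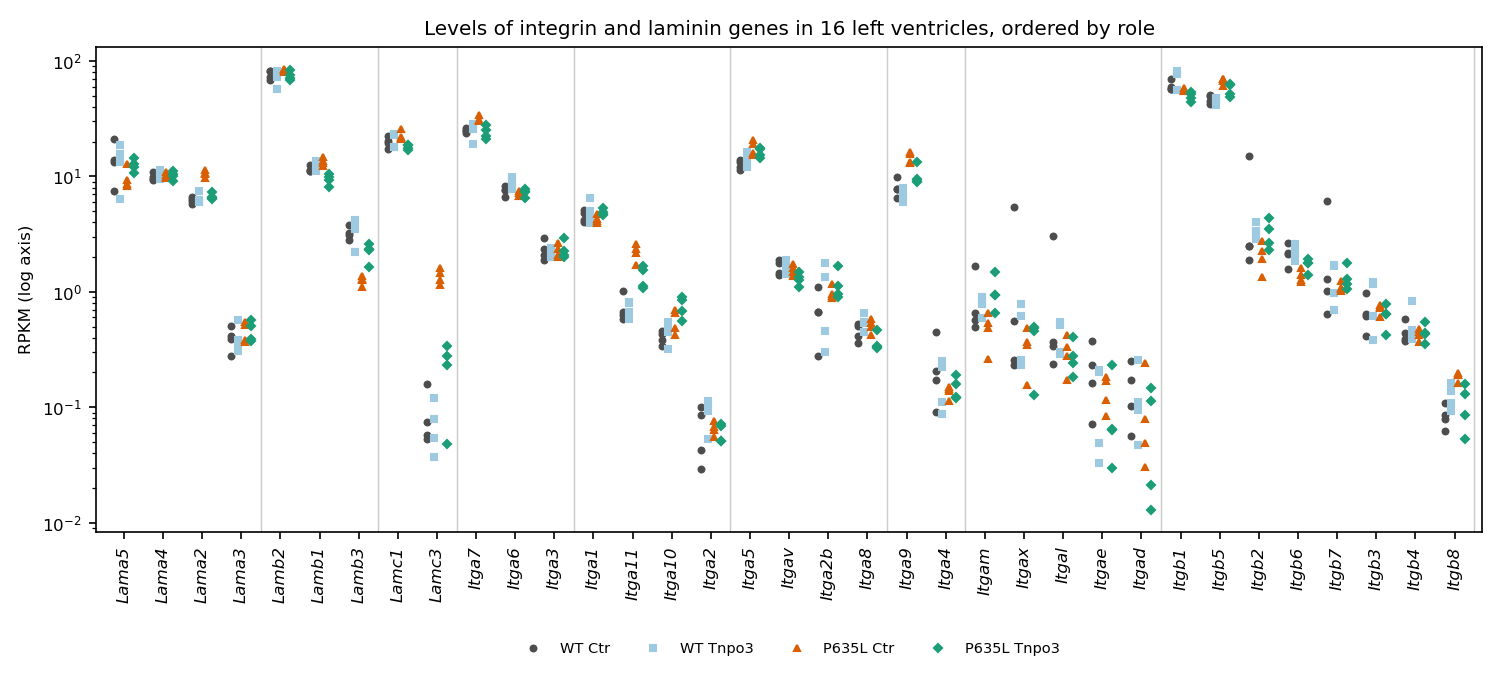
Level of the tested members described here in each of the 16 libraries, in RPKM on a log axis, ordered by role (laminin alpha, beta and gamma, then integrin alpha chains by ligand, then integrin beta chains). Lamb2, Itgb1, Itgb5 and Itga7 lie highest, and 1 WT Ctr library lies far above the rest for Itgax, Itgal, Itgb2 and Itgb7.

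Within the laminin chain classes, few genes held most of the RPKM. Lamb2 made up 79.1% to 87.9% of the beta chains in single libraries and Lamc1 was the leading gamma chain. The alpha chains were shared between Lama5 (27.8% to 54.0%), Lama4 (27.8% to 42.5%) and Lama2 (16.9% to 36.2%). The share of Lama2 was 29.7% to 36.2% in P635L Ctr and 16.9% to 26.3% in WT Ctr. Of the beta integrins, Itgb1 and Itgb5 together took the most, with Itgb5 at 49.5% to 52.9% in P635L Ctr and 37.0% to 41.8% in WT Ctr. Itga7 was the leading alpha chain with 28.2% to 41.6%.

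The comparison of P635L Ctr with WT Ctr addresses what the mutation does under the same control virus. Laminin chains and matrix integrins changed in opposite directions within each family: among others, Lamc3, Lama2, Itga11, Itgb8, Itga9, Itgb5 and Itga5 were higher in the mutant hearts, and Lamb3 and Itgb6 were lower. In edgeR's quasi-likelihood test with Benjamini-Hochberg adjustment over all genes, 10 of 36 members (27.8%) passed an adjusted p of 0.05, against 14.2% of all genes tested. Of the 36 members, 8 were called higher, against 7.07% of all genes. Of all 2653 genes called, 1320 were higher. The median log2 fold change of the 36 members was 0.03, and that of all genes -0.05.

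Lamc3 (chromosome 2: 31777303-31836551), the gamma-3 chain, which is scarce in adult muscle, differed most of all members. Its level in the 4 WT Ctr libraries was 0.326, 0.454, 0.959 and 0.348 CPM, from 9 to 35 counts. In P635L Ctr it was 9.79, 7.71, 6.91 and 8.84 CPM, from 303 to 730 counts. The groups were far apart, with the lowest mutant library above the highest WT library. The fold change was 15.6 (log2 3.96 ± 0.49 SE, adjusted p = 2.79e-05).

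Lamb3 (chromosome 1: 192890007-193026186), the beta chain of epithelial laminin, went the other way. Its levels were 20.4, 18.5, 24.8 and 21.4 CPM in WT Ctr and 8.52, 9.04, 8.42 and 7.33 CPM in P635L Ctr. The mutant libraries were all below the WT libraries, by 2.56-fold (log2 -1.35 ± 0.18, adjusted p = 4.52e-05). Lama3, the alpha chain of the same laminin, lay between 3.00 and 6.16 CPM in all 16 libraries and did not pass (log2 0.18 ± 0.23, adjusted p = 0.638).

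Lama2 (chromosome 10: 26856032-27495754), the alpha chain of muscle laminin, was at 95.6, 102, 110 and 106 CPM in WT Ctr. In P635L Ctr it was at 179, 173, 162 and 188 CPM, so that even the lowest mutant library exceeded every WT Ctr library. The difference was 1.70-fold (log2 0.76 ± 0.10, adjusted p = 4.05e-05). The other abundant laminin chains did not pass the test. Lama5, the alpha chain with the highest mean RPKM over the 16 libraries, though not in P635L Ctr, was at 153, 84.5, 240 and 156 CPM in WT Ctr, 177, 72.4, 211 and 151 CPM in WT Tnpo3, 97.3, 94.5, 145 and 105 CPM in P635L Ctr and 146, 121, 165 and 137 CPM in P635L Tnpo3. Its spread within the WT groups exceeded its differences between groups (adjusted p = 0.269 for P635L Ctr against WT Ctr). Lama4 lay between 110 and 137 CPM in all 16 libraries and did not pass (log2 0.04 ± 0.10, adjusted p = 0.833).

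Among the integrins that passed, Itga11 (chromosome 9: 62585108-62691264), a collagen receptor chain of fibroblasts, had the largest difference. It stood at 5.21, 3.26, 3.43 and 2.96 CPM in WT Ctr and at 13.2, 11.9, 8.78 and 11.2 CPM in P635L Ctr. The groups did not overlap, and the difference was 3.04-fold (log2 1.61 ± 0.20, adjusted p = 3.1e-05). Itga9 (chromosome 9: 118435758-118730071), which binds tenascin and osteopontin, was at 59.4, 59.9, 75.6 and 49.6 CPM in WT Ctr and at 103, 124, 100 and 121 CPM in P635L Ctr. It was 1.84-fold higher (log2 0.88 ± 0.15, adjusted p = 0.000559), again with no overlap.

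Itgb5 (chromosome 16: 33650035-33769708) was at 175, 181, 161 and 151 CPM in WT Ctr and at 248, 239, 214 and 246 CPM in P635L Ctr, 1.42-fold higher (log2 0.50 ± 0.11, adjusted p = 0.00349). Itga5 (chromosome 15: 103252713-103275190) was at 59.1, 56.4, 65.4 and 68.2 CPM in WT Ctr and at 94.0, 102, 78.2 and 76.0 CPM in P635L Ctr, 1.41-fold higher (log2 0.49 ± 0.12, adjusted p = 0.0114). For both, every mutant library lay above every WT Ctr library, though the rise of Itga5 did not pass without P635L Ctr replicate 2 (adjusted p = 0.0503).

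Itgb8 and Itgb6 encode beta chains that bind and activate latent TGF-beta. Itgb8 (chromosome 12: 119121757-119202537) was scarce, at 0.868, 1.20, 0.685 and 0.956 CPM in WT Ctr and 2.19, 2.12, 1.78 and 2.09 CPM in P635L Ctr, from 24 to 201 counts. It was 2.22-fold higher (log2 1.15 ± 0.31, adjusted p = 0.0183). Itgb6 (chromosome 2: 60428636-60552987) was lower, with 11.1, 18.6, 15.4 and 15.2 CPM in WT Ctr and 8.73, 9.07, 11.5 and 9.91 CPM in P635L Ctr (1.54-fold, log2 -0.62 ± 0.16, adjusted p = 0.011). The lowest WT Ctr library of Itgb6 overlapped the mutant group. The call of Itgb8 was lost without WT Ctr replicate 3 and that of Itgb6 without WT Ctr replicate 2 or without the 3 libraries rich in ENSMUSG00000119584.

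**Figure D2:**
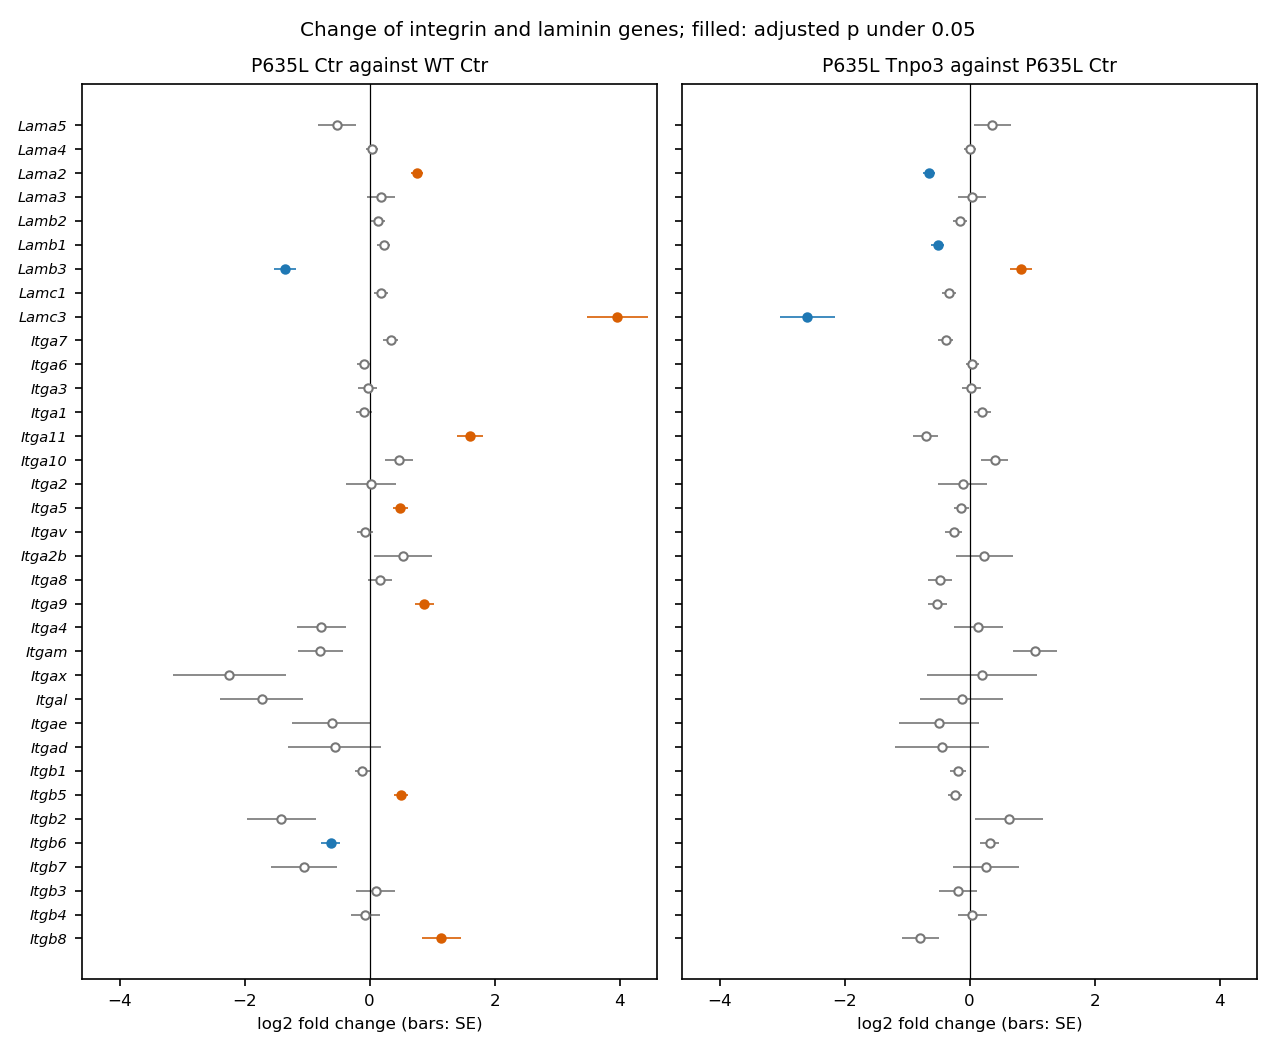
Log2 fold change with its standard error (bars) of the tested members described here, P635L Ctr against WT Ctr on the left and P635L Tnpo3 against P635L Ctr on the right, with filled points at an adjusted p under 0.05. On the left 7 members are filled above 0 and 2 below, on the right all 4 filled points are laminin chains, and both comparisons share the P635L Ctr libraries.

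The laminin-binding integrin chains did not pass the test. Itga7 was at 192, 200, 204 and 214 CPM in WT Ctr, 210, 232, 213 and 155 CPM in WT Tnpo3, 247, 251, 277 and 248 CPM in P635L Ctr and 225, 182, 205 and 173 CPM in P635L Tnpo3. Its 4 P635L Ctr libraries were above all 4 WT Ctr libraries, and its adjusted p was 0.0726 (log2 0.34 ± 0.12). It passed in 9 of 26 alternatives, among them without WT Tnpo3 replicate 2 or 4. The authors' deposited table gave Itga7 an adjusted p of 0.000891 for the same comparison. Itga6 and Itga3, further laminin-binding alpha chains, had log2 fold changes of -0.09 ± 0.10 and -0.03 ± 0.15. Itgb1 was at 244, 286, 232 and 233 CPM in WT Ctr, 333, 315, 229 and 231 CPM in WT Tnpo3, 226, 224, 230 and 239 CPM in P635L Ctr and 210, 218, 180 and 195 CPM in P635L Tnpo3, and also did not pass (log2 -0.12 ± 0.13, adjusted p = 0.591). Its 4 P635L Tnpo3 libraries lay below all 12 others, but no comparison passed (log2 -0.46 ± 0.13 and adjusted p = 0.0507 against WT Tnpo3).

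Fibroblast markers moved with these genes. In P635L Ctr against WT Ctr, 6 of 7 fibroblast markers and 4 of 6 activated fibroblast markers rose, with medians of 0.87 and 1.79 (log2). These shares were 85.7% and 66.7%, against 14.2% of all genes called in either direction. The summed CPM of the fibroblast markers was 851 to 1291 in WT Ctr and 1372 to 2037 in P635L Ctr. That of the activated fibroblast markers was 162 to 241 in WT Ctr and 364 to 651 in P635L Ctr, while 4 of 7 cardiomyocyte markers (57.1%) fell. In whole ventricle RNA, more cells of a type and more RNA per cell cannot be told apart, and the part of cell composition in the member genes' differences was not tested. None of the 7 endothelial markers passed (median log2 -0.06).

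The other genes around laminin and integrin were read from 4 lists. Of 20 basement membrane partners, 7 rose and none fell in P635L Ctr against WT Ctr (median log2 0.44). The highest were Frem1, an extracellular matrix protein of the Fras family (log2 3.89 ± 0.62, adjusted p = 0.000405), and the type IV collagen chains Col4a3 (2.13 ± 0.26, adjusted p = 2.47e-05) and Col4a4 (1.59 ± 0.21, adjusted p = 4.98e-05). Of 20 matrix ligands of integrins, 6 (30.0%) rose and none fell (median 0.40). They were led by the matricellular proteins Ccn2 (log2 2.76 ± 0.43), Thbs1 (2.62 ± 0.44) and Postn (2.00 ± 0.47). Postn, Col1a1 and Col1a2 stand in this list and also among the fibroblast markers. The call of Postn was lost without the 3 libraries with high Xist and without the 3 rich in ENSMUSG00000119584.

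The last 2 lists hold the partners inside the cell, and the other laminin receptors together with associated proteins such as the sarcoglycans. Of 33 tested integrin adaptor and focal adhesion genes, only 1 passed (3.03%, against 14.2% of all genes), and the median of the list was -0.02. The gene called was Itgb1bp2, the muscle protein melusin that binds the beta-1 tail (log2 -0.70 ± 0.12, adjusted p = 0.000815 in edgeR). Of these 11 receptors and associated proteins, 2 rose and 2 fell (36.4% called, against 14.2% of all genes). The syndecans Sdc2 (log2 0.81 ± 0.12) and Sdc1 (0.45 ± 0.14) were higher, and Sdc4 (-0.68 ± 0.17) and the sarcoglycan Sgcd (-0.54 ± 0.15) were lower. The calls of Sdc1 and Sgcd were lost under 9 and 8 of 26 alternatives, among them leaving out WT Ctr replicates 2 or 4, so these 2 calls depend on single libraries.

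The comparison of P635L Tnpo3 with P635L Ctr addresses what Tnpo3 delivery changed in the mutant hearts. All 5 members that passed were laminin chains: among them, Lamc3, Lama2 and Lamb1 were lower with Tnpo3 and Lamb3 was higher. This was 13.9% of the 36 members, against 3.88% of all genes. Of the 36 members, 4 were called lower, against 2.25% of all genes. No integrin passed. The median log2 fold change was -0.24 over the 10 laminins, -0.12 over the 18 integrin alpha genes and -0.07 over the 8 integrin beta genes, and 0.01 over all genes.

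**Figure D3:**
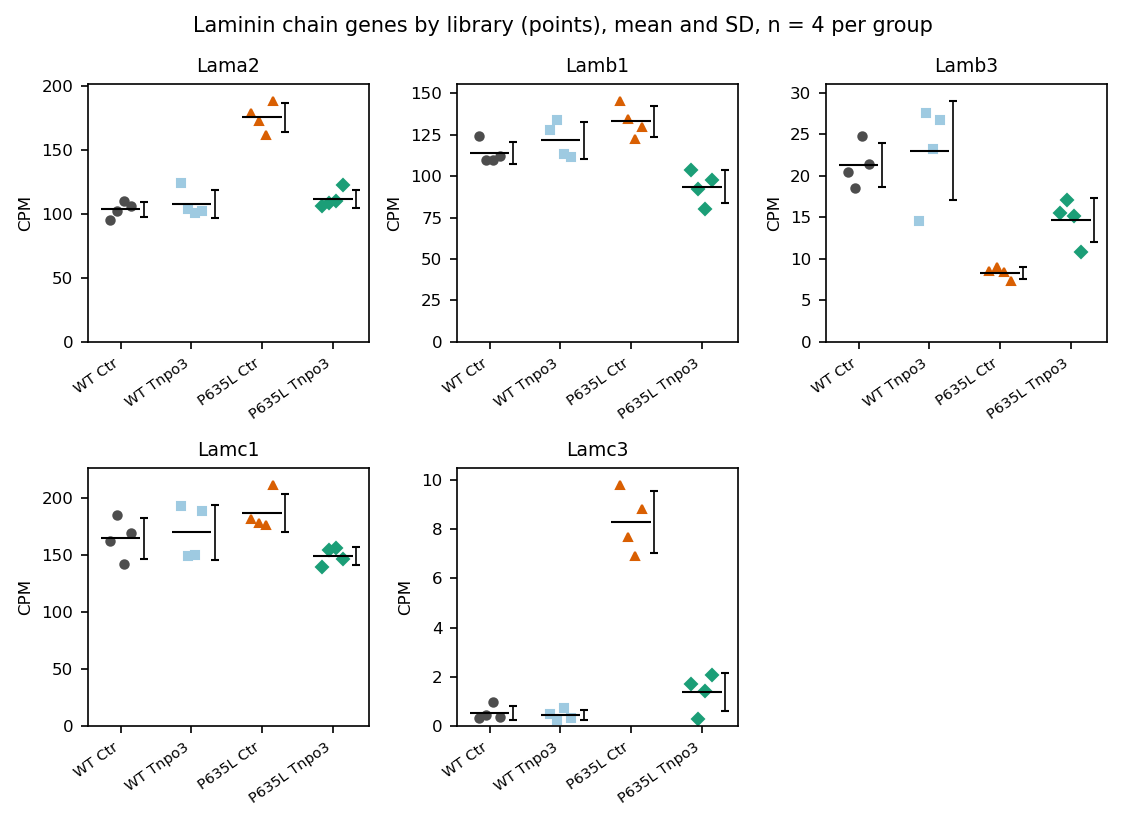
Level in CPM of 5 laminin chain genes in each library, with the group mean (line) and SD (bar), 4 mice per group. Lamb3 is ordered without overlap from P635L Ctr over P635L Tnpo3 to WT Ctr, and Lamc3 reaches 6.91 CPM or more only in P635L Ctr.

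Lamc3 in P635L Tnpo3 was at 1.71, 0.295, 1.40 and 2.08 CPM, and in WT Tnpo3 at 0.486, 0.227, 0.727 and 0.330 CPM. All 4 P635L Tnpo3 libraries were below all P635L Ctr libraries, by 6.06-fold (log2 -2.60 ± 0.44, adjusted p = 0.00316). One of them, replicate 2, lay below every WT Ctr library, and the other 3 above every one. Against WT Ctr the gene had a log2 fold change of 1.36 ± 0.48, which did not pass (adjusted p = 0.135). It passed without P635L Tnpo3 replicate 2, both against WT Ctr (adjusted p = 0.0201) and against WT Tnpo3 (0.00901, or 0.0679 with that library).

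Lamc1 (chromosome 1: 153094668-153208532), the most abundant gamma chain, was at 162, 185, 142 and 169 CPM in WT Ctr, 193, 149, 149 and 188 CPM in WT Tnpo3, 182, 178, 176 and 211 CPM in P635L Ctr and 139, 154, 156 and 146 CPM in P635L Tnpo3. Its P635L groups did not overlap, yet its difference did not pass (log2 -0.33 ± 0.12, adjusted p = 0.131).

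Lama2 was at 106, 109, 110 and 122 CPM in P635L Tnpo3 and at 124, 104, 101 and 102 CPM in WT Tnpo3. Every P635L Tnpo3 library was below the lowest P635L Ctr library, by 1.57-fold (log2 -0.65 ± 0.10, adjusted p = 0.00104). P635L Tnpo3 and WT Ctr overlapped (log2 0.11 ± 0.10, adjusted p = 0.584). Lama2 was also the 1 member of 36 whose virus effect differed between genotypes by the interaction test, against 0.504% of all genes. Its log2 fold change with Tnpo3 was -0.65 in P635L and 0.06 in WT, a difference of -0.71 ± 0.14 (adjusted p = 0.0241). The size of that difference stayed between -0.63 and -0.81 under 25 alternatives. Its adjusted p rose above 0.05 in 7 of the 16 fits without 1 library: WT Ctr replicate 1, P635L Ctr replicates 1, 2 and 4 and P635L Tnpo3 replicates 1, 2 and 3 (0.0521 to 0.0718).

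Lamb1 (chromosome 12: 31315233-31379643), the beta chain that pairs with gamma-1 in many tissues, had the lowest values in P635L Tnpo3. It was at 124, 110, 110 and 112 CPM in WT Ctr, 128, 134, 113 and 111 CPM in WT Tnpo3, 145, 135, 123 and 130 CPM in P635L Ctr and 104, 92.3, 80.4 and 97.8 CPM in P635L Tnpo3. The difference from P635L Ctr was 1.42-fold (log2 -0.51 ± 0.10, adjusted p = 0.0105) and was lost without P635L Tnpo3 replicate 3 (adjusted p = 0.0523). Of the 5 laminins, Lamb1 was the 1 that had not passed between P635L Ctr and WT Ctr (log2 0.22 ± 0.10, adjusted p = 0.17). The P635L Tnpo3 libraries also lay below all 8 WT libraries, but neither difference passed (log2 -0.29 ± 0.10 and adjusted p = 0.15 against WT Ctr, and -0.38 ± 0.10 and 0.0511 against WT Tnpo3).

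Lamb3 was at 15.6, 17.1, 15.2 and 10.8 CPM in P635L Tnpo3 and at 14.6, 27.6, 23.2 and 26.7 CPM in WT Tnpo3. It was above every P635L Ctr library and below every WT Ctr library. The rise over P635L Ctr was 1.76-fold (log2 0.82 ± 0.18, adjusted p = 0.0141). It was lost without P635L Ctr replicate 4 or P635L Tnpo3 replicate 2 (adjusted p up to 0.0615). Against WT Ctr the log2 fold change was -0.54 ± 0.18 and did not pass (adjusted p = 0.108), while the authors' deposited table gave 0.0474.

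The number of members called in this comparison fell to 3 when P635L Ctr replicate 4, P635L Tnpo3 replicate 2 or P635L Tnpo3 replicate 3 was left out. It was 9 in DESeq2, 10 with the 8 P635L libraries fitted alone, and 8 without the 3 libraries with high Xist or without the 3 rich in ENSMUSG00000119584. The 5 laminins were among the members called in each of those 4 settings. DESeq2 added Itga11, Itga9, Itga7 and Itgam. In edgeR, over all 16 libraries, Itga11 had a log2 fold change of -0.70 ± 0.20 (adjusted p = 0.0529) and Itga9 of -0.52 ± 0.15 (0.0597), just short of the threshold. Itga11 passed without WT Ctr replicate 1 or 4, WT Tnpo3 replicate 4 or P635L Ctr replicate 3, Itga9 without WT Ctr replicate 4 or P635L Tnpo3 replicate 4, and Itga7 (-0.38 ± 0.12, adjusted p = 0.0887) without WT Tnpo3 replicate 4.

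Per library, Itga11 was at 5.49, 8.53, 5.76 and 7.94 CPM in P635L Tnpo3 and at 4.07, 4.16, 2.99 and 3.40 CPM in WT Tnpo3. The P635L Tnpo3 libraries lay between those of WT Ctr and P635L Ctr without overlap. Itga9 was at 68.4, 72.4, 70.4 and 103 CPM in P635L Tnpo3 and at 46.2, 60.9, 51.4 and 51.6 CPM in WT Tnpo3, with replicate 4 of P635L Tnpo3 at the level of the P635L Ctr group. The same library had an activated fibroblast marker sum of 542 CPM, against 177 to 320 CPM in the other 3. Itgb5 was at 186, 221, 174 and 223 CPM in P635L Tnpo3 and at 148, 170, 165 and 160 CPM in WT Tnpo3. Itga5 was at 71.4, 86.9, 85.3 and 76.3 CPM in P635L Tnpo3 and at 69.6, 62.7, 59.3 and 79.9 CPM in WT Tnpo3. For Itga5 and for Itgb5 the P635L groups overlapped. Every P635L Tnpo3 library of Itga5 lay above every WT Ctr library. That difference did not pass in edgeR (log2 0.36, adjusted p = 0.126), while the authors' deposited DESeq2 result gave 0.0216.

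The TGF-beta activating chains were Itgb8 at 0.952, 1.75, 0.584 and 1.44 CPM in P635L Tnpo3 and 1.52, 1.21, 1.79 and 1.02 CPM in WT Tnpo3. Itgb6 was at 12.5, 13.7, 12.6 and 9.997 CPM in P635L Tnpo3 and at 16.3, 18.6, 15.2 and 13.1 CPM in WT Tnpo3. None of Itgb5, Itga5, Itgb8 and Itgb6 passed between P635L Tnpo3 and P635L Ctr (adjusted p = 0.241, 0.637, 0.165 and 0.28).

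**Figure D4:**
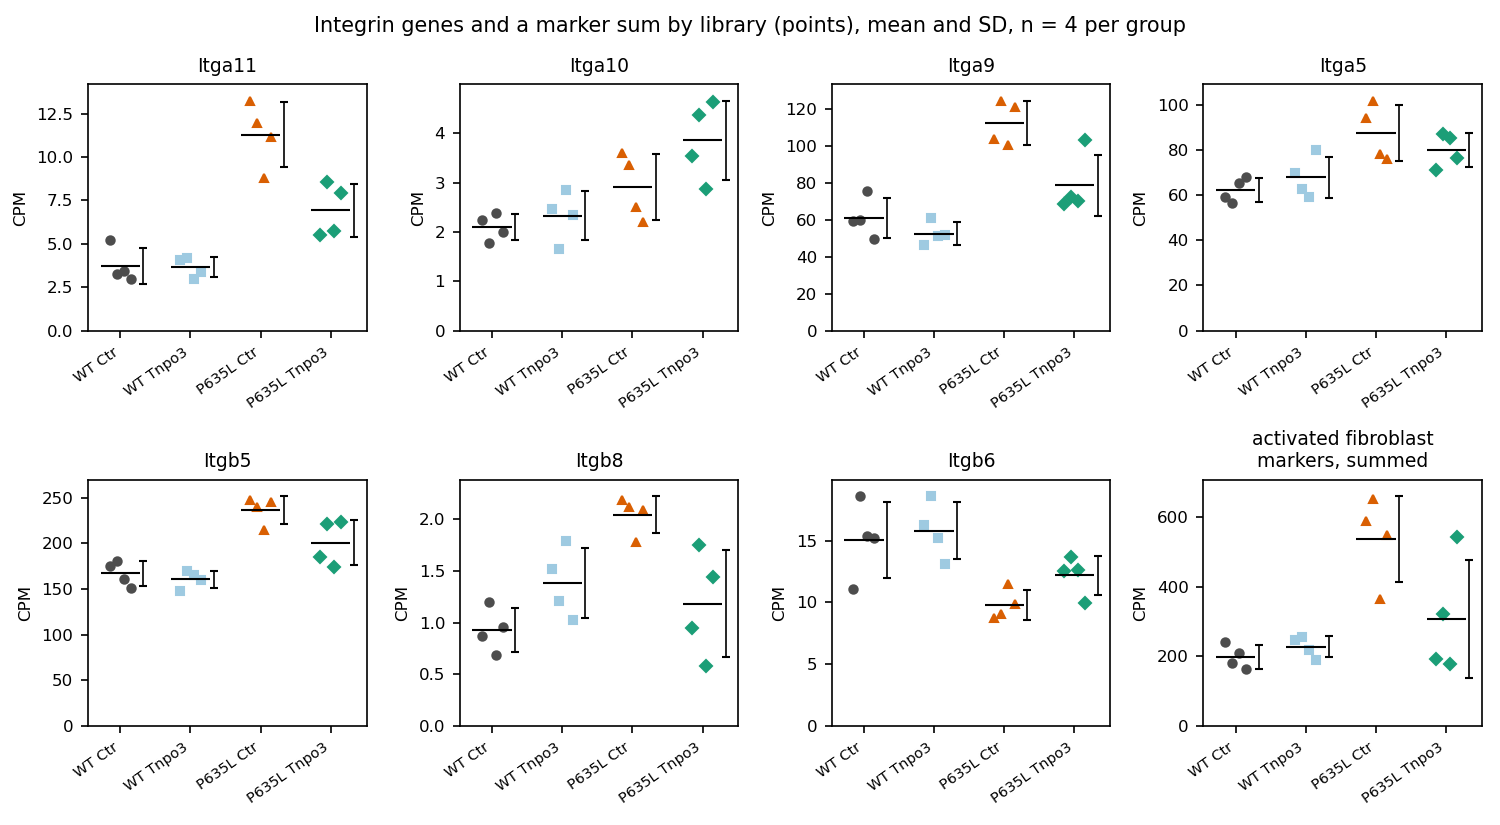
Level in CPM of the 7 integrin genes that passed in at least 1 comparison, and the summed CPM of 6 activated fibroblast markers, in each library, with the group mean (line) and SD (bar). Itga11 in P635L Tnpo3 lies between WT Ctr and P635L Ctr without overlap, and replicate 4 of P635L Tnpo3 is high for Itga9 (103 CPM) and for the marker sum (542 CPM).

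Fibroblast markers moved in this comparison too. Of 7 fibroblast markers, 5 (71.4%, against 3.88% of all genes) fell in P635L Tnpo3 against P635L Ctr (median log2 -0.86). The summed CPM of the 7 was 945 to 1299 in P635L Tnpo3. None of the 6 activated fibroblast markers passed (median -0.72), with sums of 177 to 542 CPM. Their part in the laminin differences was not tested. Among the lists, 5 of 20 basement membrane partners (25.0%) fell and none rose (median -0.40). The 3 with the largest fall were Frem1 (log2 -2.18 ± 0.54, adjusted p = 0.0342), Col4a3 (-0.92 ± 0.25, 0.0454) and Col4a4 (-0.77 ± 0.20, 0.0409). Of the matrix ligands, 2 of 20 fell, the collagen I chains Col1a2 (-0.87 ± 0.21) and Col1a1 (-0.86 ± 0.23), both also fibroblast markers. Of the 11 other laminin receptors and associated proteins, 36.4% passed. Sdc2 (-0.57 ± 0.12), Dag1, which encodes dystroglycan (-0.55 ± 0.15), and Sdc1 (-0.52 ± 0.14) fell and Sdc4 rose (0.63 ± 0.17). Of 33 adaptors, only Flnc, a filamin of the muscle Z-disc, fell (-0.57 ± 0.16, adjusted p = 0.0497 in edgeR). That is 3.03% of the adaptors, near the 3.88% of all genes called. Most of these calls were near the threshold: each of the 10 was lost in 4 to 16 of 26 alternatives.

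Mutant hearts with Tnpo3 were next compared with WT hearts. Against WT Ctr, 3 of 36 members passed, all higher, or 8.33% against 3.07% of all genes in either direction and 1.49% in the higher direction. Among them were Itga11 (1.87-fold, log2 0.90 ± 0.20, adjusted p = 0.0186) and Itga10. Itga10 (chromosome 3: 96552900-96571835), a collagen-binding chain of cartilage and fibroblasts, stood at 2.24, 1.77, 2.38 and 2.00 CPM in WT Ctr, 2.46, 1.66, 2.85 and 2.35 CPM in WT Tnpo3, 3.59, 3.37, 2.51 and 2.20 CPM in P635L Ctr and 3.54, 4.38, 2.88 and 4.64 CPM in P635L Tnpo3. Its P635L Tnpo3 libraries were above all 8 WT libraries, by 1.83-fold over WT Ctr (log2 0.88 ± 0.23, adjusted p = 0.0406). Each of the 3 calls depended on single libraries: none was left without WT Ctr replicate 4 or without P635L Tnpo3 replicate 4, and 1 was left without WT Ctr replicate 2, without the 3 libraries with high Xist, without the 3 rich in ENSMUSG00000119584 and with both groups fitted alone.

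Against WT Tnpo3, which received the same virus, 4 members passed (11.1%, against 3.72% of all genes). Among them, Itga11 (1.90-fold, log2 0.92 ± 0.20, adjusted p = 0.0168) and Itga9 (1.5-fold, log2 0.58 ± 0.15, adjusted p = 0.0376) were higher. Of all genes tested, 1.72% were called higher. Lamb3 was 1.57-fold lower (log2 -0.65 ± 0.17, adjusted p = 0.0457), and that call was lost under 17 of 26 alternatives. The number of calls was 2 without P635L Tnpo3 replicate 2 or 3 and 1 without P635L Tnpo3 replicate 4. It was 10 in DESeq2, 2 with both groups fitted alone and 1 without the 3 libraries with high Xist. The 6 activated fibroblast markers had a median log2 fold change of 1.43 against WT Ctr, where none passed. Against WT Tnpo3 it was 1.35, with Cilp called higher and Acta2 lower (33.3%, against 3.72% of all genes). None of the 7 fibroblast markers passed against WT Ctr or WT Tnpo3 (medians 0.124 and 0.145). The part of these cells in the member genes' differences was not tested.

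The type IV collagen chains Col4a3, Col4a4 and Col4a5 were higher in both of these comparisons, and Col4a1, Col4a2 and Col4a6 did not pass. Col4a3 (log2 1.20 ± 0.26), Col4a4 (0.82 ± 0.21) and Col4a5 (0.79 ± 0.20) passed against WT Ctr as 3 of 20 basement membrane partners. Their adjusted p-values in edgeR were 0.0144, 0.0378 and 0.0419, and the calls were lost under 5, 10 and 12 of 26 alternatives. The sarcoglycan Sgcb was lower (-0.76 ± 0.16, adjusted p = 0.0124 in edgeR) as the 1 call of the 11 laminin receptors and associated proteins (9.09%). None of the 33 adaptors or 20 matrix ligands passed in edgeR (5 and 4 at an unadjusted p under 0.05). Against WT Tnpo3 the same 3 collagen chains passed, Col4a3 at 1.37 ± 0.26, Col4a4 at 1.11 ± 0.21 and Col4a5 at 0.83 ± 0.20, and Sgcb was again lower (-0.68 ± 0.16, adjusted p = 0.0239). The 3 collagen calls were lost under 1, 1 and 8 of 26 alternatives. Of the 33 adaptors, 6.06% passed. Paxillin (Pxn) was higher (log2 0.55, adjusted p = 0.0399 in edgeR) and Lims1, which encodes the adaptor PINCH, was lower (log2 -0.49, adjusted p = 0.0383). These calls were lost under 10 and 13 of 26 alternatives. The same 3 collagen chains were also called higher in P635L Ctr against WT Ctr (4.37-fold, 3.0-fold and 2.27-fold for Col4a3, Col4a4 and Col4a5). Fewer integrin and laminin genes were called in both of these comparisons than between P635L Ctr and WT Ctr. That difference in the number of calls was not itself tested.

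In WT hearts no member passed with Tnpo3 delivery. Between WT Tnpo3 and WT Ctr none of the 36 was called by edgeR or by DESeq2, none had an unadjusted p under 0.05, and 0.00536% of all genes passed. The median log2 fold change of the members was 0.00. The widest differences were those of leukocyte integrins, which rested on 1 library.

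That library was WT Ctr replicate 1. Itgax, a chain of dendritic cells and macrophages, was at 26.1 CPM there and at 1.24, 1.124 and 2.67 CPM in the other WT Ctr libraries. Itgal, the alpha chain of the lymphocyte receptor LFA-1, was at 20.1 CPM there and at 1.57, 2.22 and 2.41 CPM in the others, and Itgb2, its partner, at 46.1 CPM against 7.67, 5.81 and 7.65 CPM. Itgb7, a lymphocyte homing chain, was at 17.04 CPM against 1.77, 3.59 and 2.84 CPM. Itgam, the most abundant leukocyte alpha chain per length, was at 8.39, 2.85, 2.47 and 3.30 CPM in WT Ctr, 2.97, 4.11, 3.91 and 4.49 CPM in WT Tnpo3, 3.32, 2.702, 1.32 and 2.43 CPM in P635L Ctr and 4.76, 4.70, 7.43 and 3.29 CPM in P635L Tnpo3. For Itgax, Itgal, Itgb2, Itgb7 and Itgam, replicate 1 of WT Ctr stood apart from the other WT Ctr libraries. Its Itgam level (8.39 CPM) was nevertheless close to that of the highest P635L Tnpo3 library (7.43 CPM).

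Lymphocyte markers summed to 101 CPM in WT Ctr replicate 1 and to 9.82 to 25.7 CPM in the other 15 libraries. The macrophage and monocyte sum was 944 CPM there and 272 to 700 CPM elsewhere. The log2 fold changes of P635L Ctr against WT Ctr, none of which passed, shrank without that library: from -2.25 to -0.04 for Itgax, from -1.72 to -0.06 for Itgal and from -1.41 to -0.16 for Itgb2. That of Itgb7 turned from -1.05 to 0.15. Itgb2 passed without WT Ctr replicate 3 (adjusted p = 0.0456), and Itgal (0.0254) and Itgb7 (0.0257) passed without the 3 libraries rich in ENSMUSG00000119584. Between P635L Tnpo3 and P635L Ctr Itgam had a log2 fold change of 1.04 ± 0.36 (adjusted p = 0.116). It passed in DESeq2 (adjusted p = 0.0441) and without WT Ctr replicate 1 (0.0314).

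The remaining members gave no call in any comparison. Itga1, the most abundant collagen-binding chain, was at 74.4, 77.8, 89.5 and 95.3 CPM in WT Ctr, 83.7, 73.3, 94.1 and 122 CPM in WT Tnpo3, 79.7, 76.5, 87.0 and 73.7 CPM in P635L Ctr and 88.3, 92.1, 85.4 and 99.2 CPM in P635L Tnpo3, with overlap between the groups. Lamb2 was at 415, 438, 501 and 497 CPM in WT Ctr, 348, 499, 464 and 438 CPM in WT Tnpo3, 489, 506, 517 and 511 CPM in P635L Ctr and 511, 433, 460 and 417 CPM in P635L Tnpo3, likewise overlapping (log2 0.13 ± 0.12 for P635L Ctr against WT Ctr). The RGD-binding chains Itgav, Itga2b and Itga8, the platelet partner Itgb3, the laminin receptor chain Itgb4, the lymphocyte chains Itga4 and Itgae and the platelet collagen receptor Itga2 also did not pass. Itgad shares exonic sequence with the other strand of Cox6a2, a muscle cytochrome oxidase gene at 1552 CPM. Its 3 to 48 counts per library are therefore uncertain.

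RBM20 acts on splicing, and 3 tables of splicing events made with rMATS compared each other group with WT Ctr. They listed 74 events in 23 member genes for P635L Ctr, 83 in 24 genes for P635L Tnpo3 and 66 in 21 genes for WT Tnpo3. Calls needed an rMATS FDR under 0.05, a change in inclusion (the share of junction reads that include the exon, from 0 to 1) of 0.1 or more, and 10 or more junction reads in the average library of each group. By that rule 1 of 52 member events with enough reads was called for P635L Ctr (2.5% of all such events), 0 of 57 for P635L Tnpo3 (2.11% of all) and 1 of 50 for WT Tnpo3 (0.928% of all). The median absolute difference of the member events was 0.008 in each table, against 0.013 to 0.014 over all events.

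The exons concerned are printed here because each replaces or adds a defined stretch of the protein. The genome letters were taken from GENCODE M21 transcripts (GRCm38), where the exon has the same length, and the facing ends of both neighbours the same distances, as in the deposited GRCm39 coordinates. The 132-base and 120-base exons of Itga7 encode the alternative segments, known as X1 and X2, of the ligand-binding head. The 81-base exon of Itgb1 encodes the muscle form of the cytoplasmic tail (beta-1D), and its stop codon is in capitals. The 12-base exon of Lama2 adds 4 codons. No other letters are marked.
Itga7 120-base exon, chr10:128941822-128941941, plus strand: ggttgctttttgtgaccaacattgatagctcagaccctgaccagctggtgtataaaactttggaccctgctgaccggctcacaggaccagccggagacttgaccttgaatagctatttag
Itga7 132-base exon, chr10:128941445-128941576, plus strand: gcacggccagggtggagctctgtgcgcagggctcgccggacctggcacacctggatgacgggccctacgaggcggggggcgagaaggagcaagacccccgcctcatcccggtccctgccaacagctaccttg
Itgb1 81-base exon, chr8:128726983-128727063, plus strand: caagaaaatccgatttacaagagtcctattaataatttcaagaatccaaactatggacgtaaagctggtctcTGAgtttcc
Lama2 12-base exon, chr10:27021461-27021472, minus strand: tatgaaagcaag

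The exons were searched for TCTT, the DNA form of the UCUU core that RBM20 binds. On the printed strand, which reads as the RNA does, none of the 4 exons held it. It occurs in 37.9% of internal exons of 120 bases, in 39.2% of those of 132 bases, in 29.9% of those of 81 bases and in 1.87% of those of 12 bases (protein-coding transcripts of GENCODE M21). AAGA on this strand is TCTT on the other. AAGA occurred 3 times in the Itgb1 exon and 1 time in the 132-base Itga7 exon. It occurs in 49.9% of internal exons of 81 bases and in 69.9% of those of 132 bases. The 120-base Itga7 exon and the Lama2 exon did not hold it (57.8% and 9.35% of exons of their lengths do). Flanking introns were not searched.

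The 120-base exon of Itga7 (chromosome 10: 128777691-128777810, GRCm39) was the event called in P635L Ctr. It was counted against the direct joining of the 132-base exon to the exon after both. Its inclusion was 0.688, 0.627, 0.733 and 0.625 in WT Ctr and 0.712, 0.898, 0.818 and 0.789 in P635L Ctr, a rise of 0.136 (rMATS FDR 0.0196 in the authors' deposited table). The groups overlapped at 1 mutant library, and a two-sided exact permutation test over the libraries gave p = 0.0571 (not adjusted). In P635L Tnpo3 the inclusion was 0.623, 0.753, 0.667 and 0.775 (FDR 1), and in WT Tnpo3 0.625, 0.757, 0.463 and 0.645. The difference of P635L Tnpo3 from P635L Ctr was -0.0998 and did not pass a two-sided exact permutation test (p = 0.114, adjusted over 3 events 0.171). With 70 assignments of 4 against 4 libraries, 1 separated event alone could not reach an adjusted p of 0.05 in this test, so missing it says little. The event of the same table that sets the 132-base exon against its alternative had mean inclusions of 0.265 in WT Ctr and 0.256 in P635L Ctr (FDR 1). The rise rested on a mean of 64.3 junction reads per library in WT Ctr and 154 in P635L Ctr.

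The event called in WT Tnpo3 was the 12-base exon of Lama2 (chromosome 10: 26897457-26897468). Its inclusion was 0.878, 1.00, 0.974 and 0.982 in WT Ctr and 0.971, 0.844, 0.848 and 0.748 in WT Tnpo3, a mean difference of -0.106 (FDR 0.0166, exact permutation p = 0.0571, not adjusted), with overlap between the groups. The mean difference fell under 0.1 without the WT Ctr library listed at position 2 or 4 of the table, or without the WT Tnpo3 library at position 4. Only that difference was recomputed, and the FDR was kept as deposited. In P635L Ctr the inclusion was 0.808, 0.873, 0.955 and 0.918 (FDR 0.00309, exact permutation p = 0.143, not adjusted), a difference of -0.07 that was too small for a call. In P635L Tnpo3 it was 0.859, 0.836, 1.00 and 0.878. The WT Ctr values rest on 16 to 60 junction reads.

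Of the member events, 2 others had an FDR under 0.05 with a smaller difference and are given here although they were picked after their values were seen. The 81-base exon of Itgb1 (chromosome 8: 129453464-129453544) is the better counted, with a mean of 718 junction reads per library in WT Ctr and 1398 in P635L Ctr. Its inclusion was 0.286, 0.287, 0.356 and 0.323 in WT Ctr and 0.208, 0.249, 0.253 and 0.286 in P635L Ctr, a mean difference of -0.064 (FDR 0.00603, exact permutation p = 0.0571, not adjusted). In P635L Tnpo3 it was 0.324, 0.294, 0.307 and 0.258 (FDR 1 against WT Ctr), which is 0.0468 above P635L Ctr (exact permutation p = 0.0571, adjusted 0.171), and in WT Tnpo3 0.370, 0.352, 0.255 and 0.217. The P635L groups overlapped. A 117-base exon of Itga2b, the platelet integrin chain, was fully included in all 4 WT Ctr libraries and at 0.959, 1.00, 0.878 and 0.859 in P635L Tnpo3 (FDR 0.0303, exact permutation p = 0.143, not adjusted), on 7 to 38 reads in WT Ctr.

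**Figure D5:**
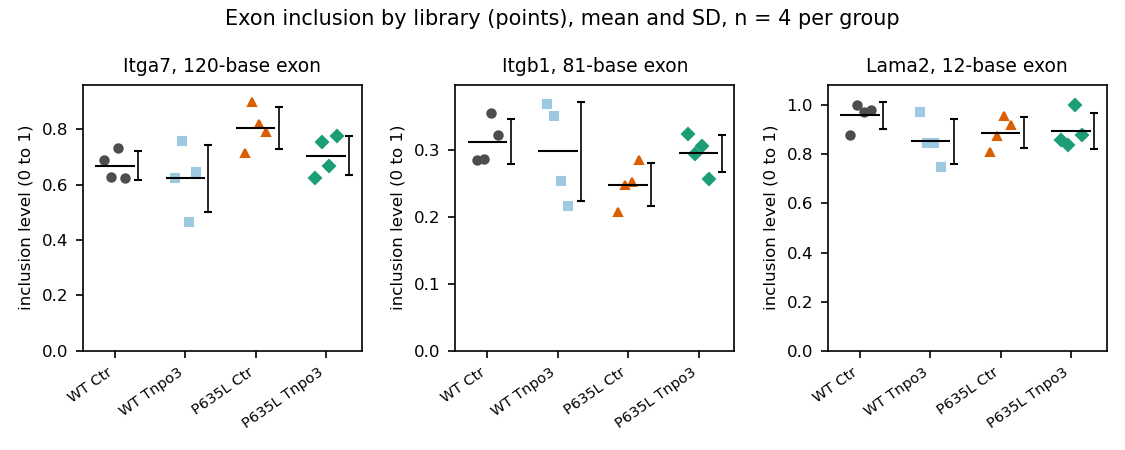
Inclusion level (0 to 1) of the 120-base exon of Itga7, the 81-base exon of Itgb1 and the 12-base exon of Lama2 in each library, with the group mean (line) and SD (bar). The mean for Itga7 is highest in P635L Ctr (0.804 against 0.668 in WT Ctr) and that for Itgb1 lowest there (0.249 against 0.313), and the groups overlap in all 3 panels.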

How the data were processed

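Whole-number counts per gene were deposited by the authors. Per the submitters' processing notes, reads were aligned with STAR 2.7.9a to GRCm39 and counted with featureCounts 2.0.6. Libraries were stranded poly(A) preparations per the labels' protocols. Symbols came from a reference table (52029 of 56953 IDs matched). The counts were filtered by edgeR's filterByExpr, scaled by TMM and tested in edgeR 4.0.16 with 1 mean per group over all 16 libraries (12 residual degrees of freedom), and p-values were adjusted over 18662 genes. The edgeR p-values set a group difference against the spread between these mice. RPKM is the CPM per kilobase of the deposited gene length. The authors' deposited tables of DESeq2 results hold log2 fold changes (WT Ctr over the other group, turned round here) and p-values. Their deposited rMATS tables hold junction read counts, inclusion scores and an FDR. No deposited rMATS table used here compares both P635L groups, so those inclusions were set against each other by exact permutation. The same test, not adjusted, was given beside the FDR for comparisons with WT Ctr. The edgeR step was tested on simulated counts. The labels give no pairing of mice by replicate number, and none was used in the main fit. Same-numbered libraries correlated from -0.257 to 0.552, with 6 of 24 pairs over 0.1, which cannot settle whether they were paired. Values per library were given for members called in any comparison and for the highest member of each role, and from each list the 3 called genes that moved most in each direction were named. The members and lists were chosen with earlier results of these data known. One member is counted in the totals and medians, but its own values are not reported here.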

Additional observations from a re-analysis of the deposited data

Results flagged for a closer look

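In 144 combinations of a tested member and a group of 4, 13 single libraries lay further from the other 3 than Dixon's 95% limit, where chance alone flags about 1 in 20. Of these, 6 were WT Ctr replicate 1: Itgal at 20.1 CPM (median of the other 3, 2.22), Itgam at 8.39 (2.85), Itgax at 26.1 (1.24), Itgb2 at 46.1 (7.65), Itgb7 at 17 (2.84) and Lamb1 at 124 (110). The first 5 are leukocyte chains, and the lymphocyte marker sum was 101 CPM in this library. In P635L Tnpo3 replicate 4, Itga8 was at 3.45 CPM (2.44), Itga9 at 103 (70.4) and Itgax at 0.616 (2.32). The others were Itga7 at 277 CPM in P635L Ctr replicate 3 (248), Lamc1 at 211 in P635L Ctr replicate 4 (178), Itgb4 at 5.85 in WT Tnpo3 replicate 4 (2.93) and Lama2 at 124 in WT Tnpo3 replicate 1 (102).

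The effect of Tnpo3 on Lama2 differed between P635L and WT hearts by -0.71 on the log2 scale (edgeR interaction, adjusted p = 0.0241). Without WT Tnpo3 replicate 1, whose Lama2 level stood apart, the difference was -0.63 (adjusted p = 0.043).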

How the results depend on the processing

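The 10 members called between P635L Ctr and WT Ctr numbered 9 to 12 under 26 alternatives, and no called member changed direction in any. Members called between P635L Tnpo3 and P635L Ctr numbered 9 in DESeq2, 10 with the groups fitted alone, 8 without the libraries rich in ENSMUSG00000119584, 8 without those with high Xist and 3 to 7 without 1 library. Against WT Ctr, P635L Tnpo3 had 1 call with the groups fitted alone, 1 without the rich libraries, 1 without the high-Xist libraries and 0 to 4 without 1 library. Against WT Tnpo3 it had 10 in DESeq2, 2 fitted alone, 1 without the high-Xist libraries and 1 to 6 without 1 library. The interaction had 3 in DESeq2 and 0 to 2 without 1 library. With a replicate block the counts were 10, 6, 2, 3, 0 and 1 over the 5 comparisons and the interaction, and 7 of 16 libraries correlated best with their own number. The log2 fold change of Itgb7 between P635L Ctr and WT Ctr ranged from -1.32 to 0.15 without 1 library, turning positive without WT Ctr replicate 1. Splicing calls at a difference of 0.05 were 3 for P635L Ctr and 1 for P635L Tnpo3. At 0.2, or at an FDR under 0.01, they were 0 for P635L Ctr and 0 for WT Tnpo3. Without 1 listed library they ranged from 0 to 1 for P635L Tnpo3 (1 without its library at position 2) and from 0 to 1 for WT Tnpo3. There only the inclusion difference was recomputed, while the FDR and the read counts stayed those of all libraries. These ranges therefore show only whether the difference crossed 0.1. Why these counts moved was not tested. Depth limits the members under 1 RPKM and the Lama2 exon.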
